A study of Mus musculus with 16 samples.

Results

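The interferon-stimulated genes examined here are 43 mouse genes taken by symbol. They comprise 23 antiviral effectors, 7 GTPases, 4 sensors of foreign nucleic acid and 9 genes that carry or restrain the interferon signal. Their transcripts were measured in whole cerebellum on 1-colour Agilent arrays, with 4 Npc1-/- arrays and 4 wild-type (Npc1+/+) arrays. Both genotypes came from in-house breeding of BALB/cNctr-Npc1m1N/J heterozygotes on a BALB/c background, were 3 weeks old, received no treatment named in the labels and gave snap-frozen tissue. Npc1, which encodes a lysosomal cholesterol transporter, is lost throughout the body in these mice and not in a chosen cell type. The sex and litter of each mouse are not given in the sources used here. A further 8 arrays of another platform were not used here, since their table names no genes. Of the 43 genes, 42 had a probe under an old or current symbol, on 66 probes in all, and 36 passed the filter on dim probes and were tested. Xaf1 had no probe under its name, and Mx1, Oas1b, Oas1g, Oas2, Oas3 and Samd9l had probes that were too dim.

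Interferons are secreted when a cell senses foreign or misplaced nucleic acid. Type I interferons bind a receptor made of Ifnar1 and Ifnar2. Its kinases activate Stat2, which acts with Irf9 in a complex that binds the interferon-stimulated response element (ISRE) in the promoters of many of the genes described here. Another element known from interferon-induced promoters is the gamma-activated site (GAS). The products block viral entry, translation and RNA replication, and some of them limit the signal itself. In brain, microglia, astrocytes, endothelium and neurons can all respond to interferon.

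The promoters of 4 members are shown because they carry the ISRE core that this pathway is known for. Oas1a, Ifit3 and Isg15 are the members past the test with the largest change among those with a match, and Stat2 is the member that did not pass with a match and the highest mean signal. The sequences run 5′ to 3′ on the strand of the gene, from 250 bases before to 50 bases after its start, and come from RefSeq (GRCm38.p6). Capitals mark matches to the ISRE core GAAANNGAAA on either strand, and overlapping matches run together.
Oas1a, chr5:120907476-120907775, minus strand: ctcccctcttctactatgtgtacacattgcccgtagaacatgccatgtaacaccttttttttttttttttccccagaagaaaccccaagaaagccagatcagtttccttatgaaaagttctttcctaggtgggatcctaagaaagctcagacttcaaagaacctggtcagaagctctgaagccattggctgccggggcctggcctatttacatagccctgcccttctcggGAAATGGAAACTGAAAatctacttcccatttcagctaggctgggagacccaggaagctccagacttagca
Ifit3, chr19:34583279-34583578, plus strand: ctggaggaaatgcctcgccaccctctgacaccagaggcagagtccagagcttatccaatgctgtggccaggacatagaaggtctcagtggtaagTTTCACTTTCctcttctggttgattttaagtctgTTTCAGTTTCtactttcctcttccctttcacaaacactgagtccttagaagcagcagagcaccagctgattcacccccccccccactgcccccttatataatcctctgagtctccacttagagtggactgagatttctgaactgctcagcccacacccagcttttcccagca
Isg15, chr4:156200769-156201068, minus strand: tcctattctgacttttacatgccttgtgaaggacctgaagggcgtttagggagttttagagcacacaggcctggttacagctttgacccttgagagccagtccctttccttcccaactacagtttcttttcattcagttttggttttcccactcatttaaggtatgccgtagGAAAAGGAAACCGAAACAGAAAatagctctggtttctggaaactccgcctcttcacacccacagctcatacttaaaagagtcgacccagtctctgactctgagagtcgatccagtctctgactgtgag
Stat2, chr10:128270248-128270547, plus strand: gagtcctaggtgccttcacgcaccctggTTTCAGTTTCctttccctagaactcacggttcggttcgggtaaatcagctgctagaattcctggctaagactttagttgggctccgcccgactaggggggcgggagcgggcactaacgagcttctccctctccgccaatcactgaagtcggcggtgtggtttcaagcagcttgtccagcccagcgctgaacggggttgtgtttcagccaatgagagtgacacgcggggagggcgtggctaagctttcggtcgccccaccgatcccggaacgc

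Oas1a held 2 overlapping matches whose first bases lay 20 and 14 bases before the start. In Isg15 there were 3 overlapping matches, at 78, 72 and 66 bases before the start. Ifit3 held 2 separate matches on the opposite strand, at 156 and 122 bases, and Stat2 held 1 on the opposite strand at 222 bases. A promoter was found in the table for 33 of the 43 members, and 18 of them (54.5%) held an ISRE core, against 1079 of 27025 genes in the whole table (3.99%). The GAS core TTCNNNGAA, which reads the same on both strands, was in 11 of the 33 (33.3%), against 9.55% of all genes. The ISRE core was in 7 of the 12 members past the test that had a promoter and in 9 of the 17 that were tested and did not pass. By role it was in 4 of 4 GTPases, 2 of 2 sensors, 10 of 19 antiviral effectors and 2 of 8 signal genes. A match is a string of letters and not a measured binding site.

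Across all genes, 17983 were tested, 132 were higher in Npc1-/- cerebellum (0.734%) and 6 were lower (0.0334%), by limma with a Benjamini-Hochberg adjusted p under 0.05. The median log2 fold change over all genes was -0.02. Npc1 itself had log2 signals of -2.53, -2.44, -2.32 and -2.60 in Npc1-/- cerebella, against -0.52, -0.40, -0.64 and -0.37 in wild-type cerebella, a log2 fold change of -1.99 ± 0.10 (SE, n = 4 each, adjusted p = 0.00045). Here a log2 signal is that of a probe relative to the 75th percentile of its own array, so 0 is the signal at that percentile, and values of different genes are not compared with each other. Between 22182 and 28137 probes per array were well above background, the lowest number on wild-type replicate 2, whose dimmest such probe was at -3.90 while those of the other 7 arrays were at -6.04 to -5.36. Arrays lay on 4 slides, of which slides 2, 3 and 4 held both genotypes and slide 1 held wild-type replicate 4 alone. All 10 markers of cerebellar neurons passed the filter.

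Of the 36 interferon-stimulated genes tested, 14 rose in Npc1-/- cerebellum and none fell by limma's adjusted p. At an unadjusted p under 0.05, 31 were higher and 0 lower, where 5.09% of all genes were higher and 2.31% lower. The 14 are Ifi44, Oasl2, Usp18, Lgals3bp, Oas1a, Oasl1, Ifit3, Isg15, Bst2, Parp14, Irgm1, Igtp, Gbp3 and Ifit2. The background of the adjusted calls is the 0.734% of all genes called higher. In 27 of the 36 every Npc1-/- array was above every wild-type array, a pattern seen in 2.96% of all genes. Log2 fold changes of the 36 ran between -0.09 for Ifnar2 and 2.08 for Ifi44, with a median of 0.88, and 32 were above 0. All 36 were well above background on each of the 4 Npc1-/- arrays, and 34, 29, 33 and 34 of them on wild-type replicates 1 to 4. Since a gene seen mainly in Npc1-/- arrays could pass the filter through them, the 29 genes above background on all 8 arrays were also counted: 12 of them rose and their median log2 fold change was 0.83. Of the 14, Ifi44 and Oasl1 are outside these 29, being well above background on 1 and 2 wild-type arrays. Their 4 Npc1-/- arrays alone met the filter, so their calls lend the count of 14 no support. A separate fit of only the genes above background on all 8 arrays called 83 of 14754 higher, 14 of the 29 among them. These 14 are the same 12 with Gbp2 and Ifi27 added. The cerebellum was measured whole, so more cells of a type and more RNA per cell cannot be told apart.

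**Figure D1:**
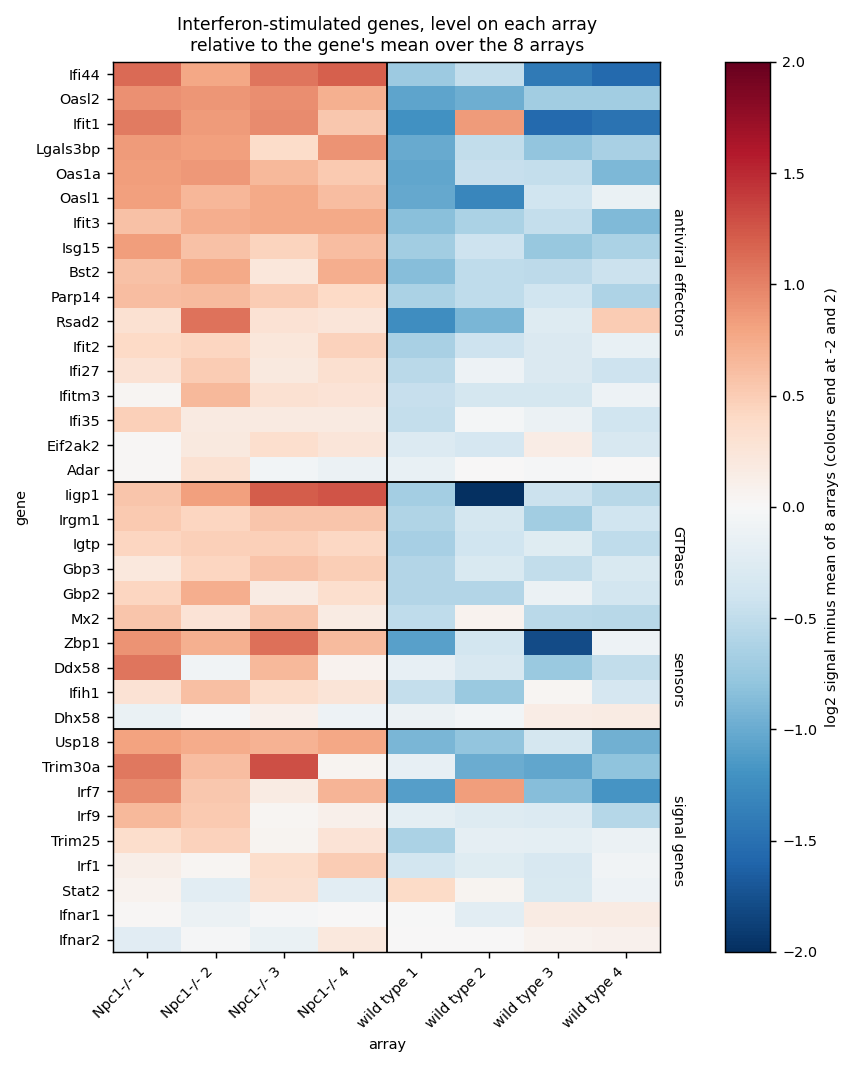
Level of the 36 interferon-stimulated genes tested (rows, grouped by role) on each of the 8 arrays (columns, Npc1-/- left, wild type right), as log2 signal minus the gene's mean over the 8 arrays. Most rows are red on the left and blue on the right, and wild-type replicate 2 stands out as red for Ifit1 and Irf7.

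The median of the members on each array, relative to each gene's mean over the 8 arrays, was 0.54, 0.56, 0.36 and 0.40 in Npc1-/- replicates 1 to 4, against -0.62, -0.36, -0.38 and -0.41 in wild-type replicates 1 to 4. The 2 genotypes did not overlap in this median. With slide as a block in the fit, 8 of the 36 were called higher, 7 of them among the 14. The median log2 fold change of the 36 was 0.876 in that fit, and the cause of the lost calls was not tested. Over all genes that fit called 37 of 17983 higher. Within slides the median difference of the 36 was 0.96 on slide 2, 0.87 on slide 3 and 1.11 on slide 4, and 33, 30 and 33 of the 36 differences were above 0. Each of these within-slide values rests on 1 wild-type array, and those of slides 2 and 4 also on a single Npc1-/- array. Slide 2 held Npc1-/- replicate 2 and wild-type replicate 3, and slide 4 held Npc1-/- replicate 3 and wild-type replicate 1. Slide 3 held Npc1-/- replicates 1 and 4 and wild-type replicate 2. With each array left out in turn, 10 of the 14 passed in all 8 fits; the exceptions were Bst2, Gbp3, Oasl1 and Ifit2.

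**Figure D2:**
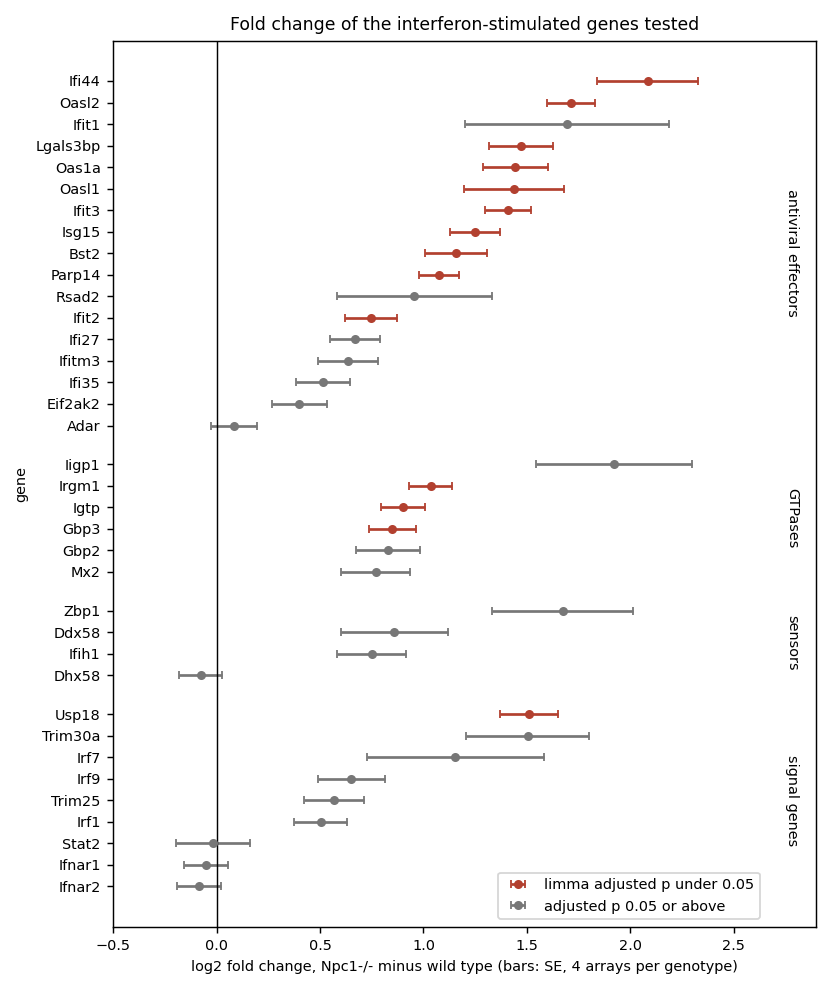
Log2 fold change, Npc1-/- minus wild type, of the 36 genes tested, grouped by role, with bars for the SE from limma (4 arrays per genotype). Red points are the 14 genes past the adjusted p threshold of 0.05, 10 of which are antiviral effectors; the receptor chains Ifnar1 and Ifnar2, with Stat2, Dhx58 and Adar, lie next to 0.

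Among the antiviral effectors 17 were tested, 10 rose and 7 did not pass, where 0.734% of all genes rose. The median log2 fold change of the 17 was 1.16. The oligoadenylate synthetase family, which with double-stranded RNA makes the messenger that activates the nuclease RNase L, was led by Oasl2, a synthetase-like member. Oasl2 (probe at chr5:114132992-114133051 in the mm7 coordinates of the files, which do not say whether a probe lies in coding sequence or a UTR) had log2 signals of -0.77, -0.79, -0.76 and -0.98 in Npc1-/- cerebella, against -2.74, -2.66, -2.38 and -2.38 in wild-type cerebella. The groups lay far apart, and the fold change was 3.28 (log2 1.71 ± 0.12 SE, adjusted p = 0.00053). Oas1a (chr5:120132325-120132384) gave -2.29, -2.26, -2.47 and -2.60 in Npc1-/- cerebella, against -4.17, -3.60, -3.61 and -4.03 in wild-type cerebella. This was a log2 fold change of 1.44 ± 0.16 (SE, adjusted p = 0.00623), again with no overlap. With slide as a block it did not pass (adjusted p = 0.0631), and with normexp background correction and quantile scaling it was 0.89 and passed.

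Oasl1, a synthetase-like protein without the enzyme activity, was measured with less certainty. Its log2 signals were -4.03, -4.18, -4.09 and -4.24 in Npc1-/- cerebella, against -5.88, -6.16, -5.26 and -4.99 in wild-type cerebella, where only 2 of 4 arrays were well above background. The log2 fold change of 1.44 ± 0.24 (SE) had an adjusted p of 0.0423, which is limited in the same way as its detection, since the Npc1-/- arrays alone met the filter. With normexp it was 0.48 (adjusted p = 0.132), and with slide or scan day as a block the adjusted p was 0.0814 or 0.0571. It passed when wild-type replicate 2 (0.0464) or 4 (0.0244) was left out, and its adjusted p was 0.0637 to 0.148 without any of the other 6 arrays. Of the synthetases that were not tested, Oas2 had its brighter probe well above background on 3 Npc1-/- arrays and on none of the wild-type arrays, with -4.48, -4.32, -4.68 and -5.27 in Npc1-/- cerebella, against -6.92, -5.83, -6.74 and -6.84 in wild-type cerebella. Taking the higher of that reading and the dimmest signal well above background on each wild-type array, Oas2 came out 1.62-fold higher, with no test. Npc1-/- replicate 4 was not well above background and entered as read, so this fold is not a strict lower bound. The dimmer Oas2 probe was well above background on no array. No probe of Oas1b, Oas1g or Oas3 was well above background on any array, and RefSeq annotates Oas1b as a transcribed pseudogene in its reference strain.

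The Ifit proteins bind viral RNA ends and block their translation. Ifit3 (chr19:34289919-34289978) had 0.07, 0.22, 0.24 and 0.24 in Npc1-/- cerebella, against -1.34, -1.15, -0.996 and -1.39 in wild-type cerebella. The Npc1-/- arrays lay within a narrow band above every wild-type array, and the log2 fold change was 1.41 ± 0.11 (SE, adjusted p = 0.00106). Its dimmer probe, which may read a near-identical copy of the gene, gave a log2 fold change of 1.57 (adjusted p = 0.0167 over all probes). Ifit2 had -2.59, -2.56, -2.76 and -2.53 in Npc1-/- cerebella, against -3.64, -3.40, -3.27 and -3.13 in wild-type cerebella. Its log2 fold change was 0.75 ± 0.12 (SE, adjusted p = 0.0403), and among the fits with 1 array left out it passed only without wild-type replicate 4 (0.0489), the other 7 giving 0.069 to 0.156. With normexp it was 0.38 (adjusted p = 0.430), and with slide or scan day as a block its adjusted p was 0.0679 or 0.0949.

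For Ifit1 a single wild-type array decided the outcome. Log2 signals were -2.43, -2.61, -2.51 and -2.92 in Npc1-/- cerebella, against -4.68, -2.62, -5.02 and -4.94 in wild-type cerebella. Wild-type replicate 2 lay inside the Npc1-/- range, and the other 3 wild-type arrays lay far below it. The log2 fold change of 1.70 ± 0.49 (SE) did not pass (adjusted p = 0.323), and without that array it was 2.26 with an adjusted p of 0.000802. On slide 3, where that array was the only wild-type one, the difference was -0.05, against 2.41 on slide 2 and 2.16 on slide 4. With normexp the log2 fold change of Ifit1 was 0.91 (adjusted p = 0.102).

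Ifi44, an interferon-induced protein, had a log2 fold change of 2.08 ± 0.25 (SE, adjusted p = 0.00738). Its log2 signals were -3.59, -3.94, -3.65 and -3.53 in Npc1-/- cerebella, against -5.44, -5.20, -6.12 and -6.28 in wild-type cerebella. The groups did not overlap, but only 1 wild-type array was well above background, and with normexp the log2 fold change was 0.60. Ifi44 met the filter through its Npc1-/- arrays, which limits what its p can say. With normexp, Lgals3bp had the largest log2 fold change of the members tested, followed by Ifit3 (1.33), Oasl2 (1.29) and Usp18 (1.21). Further members, such as Bst2, Oas1a and Isg15, were also above Ifi44 in that fit. Lgals3bp, a secreted glycoprotein that binds galectins, had 1.67, 1.63, 1.19 and 1.72 in Npc1-/- cerebella, against -0.18, 0.32, 0.03 and 0.17 in wild-type cerebella. Every array measured it well above background, and the log2 fold change was 1.47 ± 0.16 (SE, adjusted p = 0.00519).

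Isg15 encodes a ubiquitin-like protein that is attached to other proteins. It had -0.94, -1.19, -1.35 and -1.16 in Npc1-/- cerebella, against -2.48, -2.20, -2.55 and -2.41 in wild-type cerebella. The groups did not overlap, which gave a log2 fold change of 1.25 ± 0.12 (SE, adjusted p = 0.00303). The files place its probe on chromosome 17 and RefSeq places the gene on chromosome 4, so that probe is named by its transcript accession alone. Bst2, the membrane tether known as tetherin that holds budding virus at the cell surface, had 0.74, 0.91, 0.37 and 0.87 in Npc1-/- cerebella, against -0.71, -0.36, -0.38 and -0.28 in wild-type cerebella. Npc1-/- replicate 3 was the lowest of its group and still above every wild-type array. Bst2 thus changed by 1.16 ± 0.15 on the log2 scale (SE, adjusted p = 0.0118). Without Npc1-/- replicate 1, 2 or 4 the adjusted p was 0.0536, 0.057 or 0.0548.

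Parp14 adds single ADP-ribose units to proteins. Its brightest probe gave -1.15, -1.13, -1.26 and -1.38 in Npc1-/- cerebella, against -2.39, -2.28, -2.16 and -2.39 in wild-type cerebella, a log2 fold change of 1.07 ± 0.10 (SE, adjusted p = 0.00257) with no overlap. With slide as a block its adjusted p was 0.05003, just above the threshold. Rsad2 (viperin), which makes a nucleotide that stops viral RNA synthesis, had -2.21, -1.42, -2.22 and -2.27 in Npc1-/- cerebella, against -3.74, -3.42, -2.76 and -2.01 in wild-type cerebella. Npc1-/- replicate 2 was the highest array and wild-type replicate 4 lay among the Npc1-/- arrays. The log2 fold change of 0.95 ± 0.37 (SE) did not pass (adjusted p = 0.590). Wild-type replicate 4 is alone on its slide and so adds nothing to the genotype difference when slide is a block, and in that fit Rsad2 passed with 1.33 (adjusted p = 0.0349). The other 2 Rsad2 probes gave 0.45 and 0.95 and did not pass (adjusted p = 0.884 and 0.795 over all probes).

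**Figure D3:**
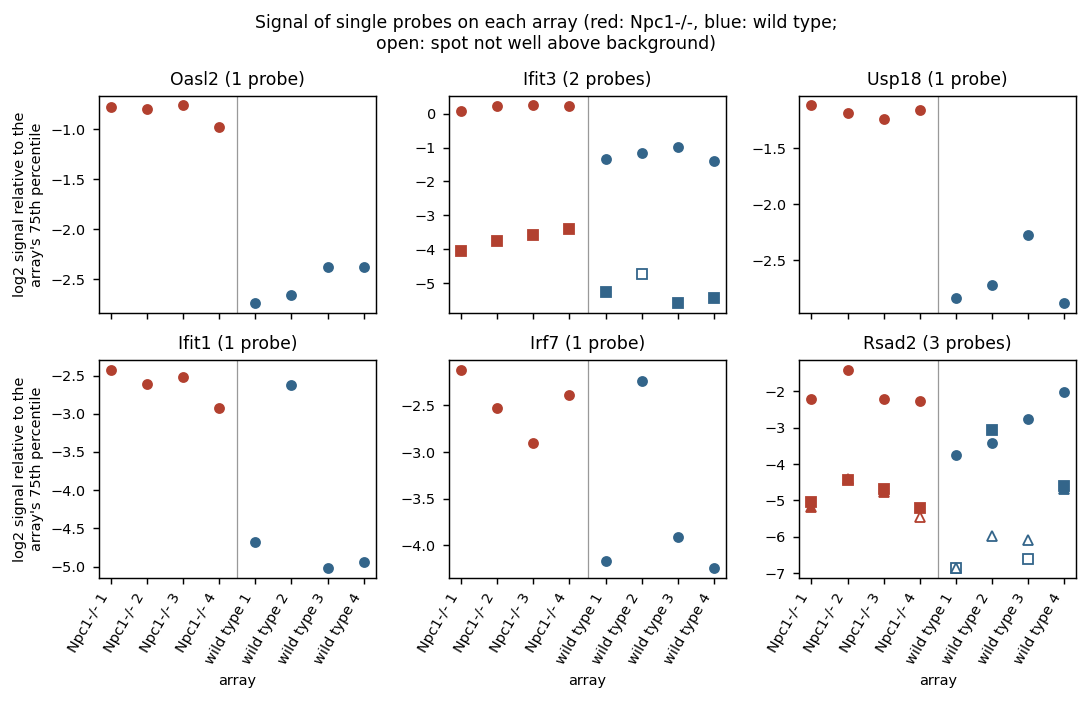
Log2 signal of the tested probes of 6 members on each array (Npc1-/- in red on the left, wild type in blue on the right, 1 symbol shape per probe, open symbols for spots not well above background). Oasl2, Ifit3 and Usp18 separate the genotypes, wild-type replicate 2 lies among the Npc1-/- arrays for Ifit1 and Irf7, and wild-type replicate 4 does so for Rsad2.

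The remaining antiviral effectors that were tested did not pass. For Ifi27, a mitochondrial protein, the log2 fold change was 0.67 ± 0.12 (SE, adjusted p = 0.0540), with Npc1-/- arrays at 2.22 to 2.53 and wild-type arrays at 1.49 to 1.92. Without wild-type replicate 2 its adjusted p was 0.038, and a dimmer probe that carries the name by symbol alone gave 1.23 (adjusted p = 0.101 over all probes). Ifi27 also passed with only genes above background on all 8 arrays (adjusted p = 0.0441) and with the mean of its probes (0.0299). Ifitm3, which blocks fusion of viruses with the endosome, had 1.00 to 1.61 in Npc1-/- cerebella and 0.50 to 0.87 in wild-type cerebella (log2 fold change 0.63, adjusted p = 0.135). Ifi35 ranged over -1.70 to -1.40 in Npc1-/- cerebella and over -2.36 to -1.92 in wild-type cerebella (0.51, adjusted p = 0.220). In these 3 genes the groups did not overlap. They overlapped for Eif2ak2, the kinase PKR that halts translation on double-stranded RNA (0.40 ± 0.13 SE, adjusted p = 0.456), and for Adar, which edits adenosine to inosine in double-stranded RNA (0.08 ± 0.11 SE, adjusted p = 0.812, with a dimmer probe at 0.37). Samd9l, a restriction factor, was well above background on 2 Npc1-/- arrays and 1 wild-type array and was not tested.

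Among the GTPases 6 of 7 were tested, 3 rose and 3 did not pass, where 0.734% of all genes rose. The median log2 fold change of the 6 was 0.87. In all 6 every Npc1-/- array was above every wild-type array, a pattern seen in 2.96% of all genes. The immunity-related GTPases act on the membranes around intracellular pathogens. Irgm1, which regulates the others, had -1.03, -1.14, -1.01 and -1.005 in Npc1-/- cerebella, against -2.17, -1.92, -2.26 and -1.97 in wild-type cerebella. Its log2 fold change was 1.03 ± 0.10 (SE, adjusted p = 0.00389), and a further Irgm1 probe gave 0.91 (adjusted p = 0.00349 over all probes).

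Igtp, another regulator of this family, had -0.48, -0.43, -0.43 and -0.51 in Npc1-/- cerebella, against -1.58, -1.31, -1.16 and -1.41 in wild-type cerebella. The spread of its Npc1-/- arrays (SD 0.04) was the smallest among the members, and the log2 fold change was 0.90 ± 0.11 (SE, adjusted p = 0.00738). Iigp1, an effector that loads onto parasite vacuoles, had -3.12, -2.86, -2.47 and -2.42 in Npc1-/- cerebella, against -4.36, -5.84, -4.11 and -4.24 in wild-type cerebella. Wild-type replicate 2 was the lowest array and was the 1 wild-type array not well above background. The log2 fold change of 1.92 ± 0.38 (SE) did not pass (adjusted p = 0.0749), and without that array it was 1.52 with an adjusted p of 0.0145. It also passed with normexp (0.81, adjusted p = 0.0279) and with scan day as a block (adjusted p = 0.0494).

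The guanylate-binding proteins coat and disrupt pathogen membranes. Gbp3 had -1.10, -0.89, -0.74 and -0.83 in Npc1-/- cerebella, against -1.90, -1.63, -1.81 and -1.62 in wild-type cerebella, a log2 fold change of 0.85 ± 0.11 (SE, adjusted p = 0.0138). Without Npc1-/- replicate 2 or 4 its adjusted p was 0.0651 or 0.0624. Gbp2 had a log2 fold change of 0.83 ± 0.15 (SE, adjusted p = 0.0627) and did not pass. It was called in the fit of only the genes above background on all 8 arrays. With slide as a block the adjusted p was 0.05003 for Irgm1, 0.0952 for Igtp and 0.149 for Gbp3, so that no GTPase passed. Their within-slide differences were all above 0.

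Mx1 and Mx2 encode dynamin-like GTPases that trap viral ribonucleoprotein, and RefSeq annotates both as transcribed pseudogenes in its reference strain. Mx2 had -1.54, -1.81, -1.53 and -1.92 in Npc1-/- cerebella, against -2.59, -2.02, -2.62 and -2.64 in wild-type cerebella. Wild-type replicate 2 was the highest of its group, next to the lowest Npc1-/- array. Its log2 fold change was 0.77 ± 0.17 (SE, adjusted p = 0.115), and without that array it was 0.92 with an adjusted p of 0.0225. With normexp it was 0.47. Mx1 was well above background on 3 Npc1-/- arrays and on none of the wild-type arrays, at -5.19, -5.27, -5.76 and -5.99 in Npc1-/- cerebella, against -7.55, -6.11, -8.12 and -8.30 in wild-type cerebella. No fold is given for Mx1, since its Npc1-/- mean did not exceed the bound that the wild-type arrays allow.

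None of the 4 sensors passed limma's adjusted threshold, 3 were higher at an unadjusted p under 0.05 (5.09% of all genes were), and their median log2 fold change was 0.80. In 3 of them every Npc1-/- array was above every wild-type array, as in 2.96% of all genes. None of these 3 was well above background on every wild-type array, with Ddx58 and Ifih1 so on 3 of the 4. Dhx58, described below, was the 1 sensor above background on all 8 arrays. Zbp1, which binds nucleic acid in the left-handed Z form and can trigger cell death, had -4.88, -5.05, -4.66 and -5.13 in Npc1-/- cerebella, against -6.85, -6.13, -7.56 and -5.87 in wild-type cerebella, with 1 wild-type array well above background. Its log2 fold change was 1.67 ± 0.34 (SE, adjusted p = 0.0878). Ddx58 (RIG-I), which senses the ends of viral RNA, had -2.65, -3.79, -3.07 and -3.65 in Npc1-/- cerebella, against -3.88, -4.05, -4.47 and -4.21 in wild-type cerebella. The gap between the groups was small beside the spread of the Npc1-/- arrays (0.86 ± 0.26 SE, adjusted p = 0.353).

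Ifih1 (MDA5), a sensor of long double-stranded RNA, had -3.01, -2.71, -2.95 and -3.05 in Npc1-/- cerebella, against -3.77, -4.04, -3.26 and -3.63 in wild-type cerebella (0.75 ± 0.17 SE, adjusted p = 0.124). It was the 1 sensor that passed in any fit with an array left out, at an adjusted p of 0.0428 without wild-type replicate 3. Dhx58 (LGP2), which tunes the other RNA sensors, had -2.42 to -2.20 in Npc1-/- cerebella and -2.41 to -2.13 in wild-type cerebella, and the groups overlapped almost fully (-0.08 ± 0.10 SE, adjusted p = 0.812). With normexp the log2 fold changes of Zbp1, Ddx58 and Ifih1 were 0.31, 0.35 and 0.42.

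Among the 9 signal genes, all tested, Usp18 rose and 8 did not pass, where 0.734% of all genes rose. The median log2 fold change of the 9 was 0.57. Whether the 4 roles differ in their change was not tested. Usp18 removes Isg15 from proteins and binds the receptor chain Ifnar2 to dampen the signal. It had -1.12, -1.18, -1.24 and -1.15 in Npc1-/- cerebella, against -2.84, -2.72, -2.28 and -2.89 in wild-type cerebella. The Npc1-/- arrays lay close together above every wild-type array, and the log2 fold change was 1.51 ± 0.14 (SE, adjusted p = 0.00262). Among the signal genes it was the 1 called with slide as a block (1.44, adjusted p = 0.0434).

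The transcription factors showed no call. Irf7, which drives interferon genes, had -2.12, -2.53, -2.90 and -2.39 in Npc1-/- cerebella, against -4.17, -2.23, -3.91 and -4.24 in wild-type cerebella. As for Ifit1, wild-type replicate 2 lay inside the Npc1-/- range and the other 3 wild-type arrays lay below it. The log2 fold change was 1.15 ± 0.43 (SE, adjusted p = 0.554), and without that array it was 1.62 with an adjusted p of 0.0116. With normexp it was 0.67. Within slides the Irf7 difference was 1.38 on slide 2, -0.02 on slide 3 and 1.27 on slide 4.

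Irf9, the DNA-binding part of the Stat complex, had -0.13, -0.26, -0.73 and -0.67 in Npc1-/- cerebella, against -0.97, -1.03, -1.05 and -1.34 in wild-type cerebella (0.65 ± 0.16 SE, adjusted p = 0.197). Irf1, an early transcription factor of the response, had -0.75 to -0.29 in Npc1-/- cerebella and -1.16 to -0.87 in wild-type cerebella (0.50 ± 0.13 SE, adjusted p = 0.211). On these probes the groups did not overlap for either gene. They did overlap on a dimmer probe of each. Those probes gave 0.94 for Irf9 and 0.35 for Irf1 (adjusted p = 0.569 and 0.811 over all probes). Stat2 had 1.18, 0.91, 1.43 and 0.90 in Npc1-/- cerebella, against 1.49, 1.17, 0.81 and 1.02 in wild-type cerebella, with full overlap and a log2 fold change of -0.02 ± 0.18 (SE, adjusted p = 0.978), although its promoter holds the ISRE core printed above.

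Neither receptor chain passed. Ifnar1 had 0.95, 0.80, 0.89 and 0.93 in Npc1-/- cerebella, against 0.91, 0.71, 1.08 and 1.08 in wild-type cerebella (-0.05 ± 0.11 SE, adjusted p = 0.882). Ifnar2 had -0.39, -0.19, -0.30 and 0.04 in Npc1-/- cerebella, against -0.17, -0.15, -0.09 and -0.08 in wild-type cerebella (-0.09 ± 0.11 SE, adjusted p = 0.806). The groups overlapped for both genes, and a dimmer Ifnar2 probe gave 0.29 (adjusted p = 0.811 over all probes).

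Trim25, a ubiquitin ligase that activates Ddx58, had -0.80 to -0.40 in Npc1-/- cerebella and -1.50 to -0.97 in wild-type cerebella, without overlap (0.57 ± 0.14 SE, adjusted p = 0.213). Trim30a, a regulator of inflammatory signalling, was measured by 2 probes of nearly equal mean signal. The slightly brighter one had -3.96, -4.41, -3.74 and -4.98 in Npc1-/- cerebella, against -5.18, -6.02, -6.07 and -5.83 in wild-type cerebella, and did not pass (1.504 ± 0.30 SE, adjusted p = 0.0756). The other gave -4.78, -4.16, -4.60 and -4.19 in Npc1-/- cerebella, against -5.75, -5.71, -5.53 and -5.63 in wild-type cerebella, and passed when every probe was tested by itself (1.22, adjusted p = 0.0143). The groups did not overlap on either probe, and only 1 and 2 wild-type arrays were well above background on them. Without Npc1-/- replicate 1 or 3 or wild-type replicate 1 this second probe had the higher mean and stood for the gene, with adjusted p of 0.0139, 0.0254 and 0.0375. With normexp the log2 fold change of Trim30a was 0.38.

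**Figure D4:**
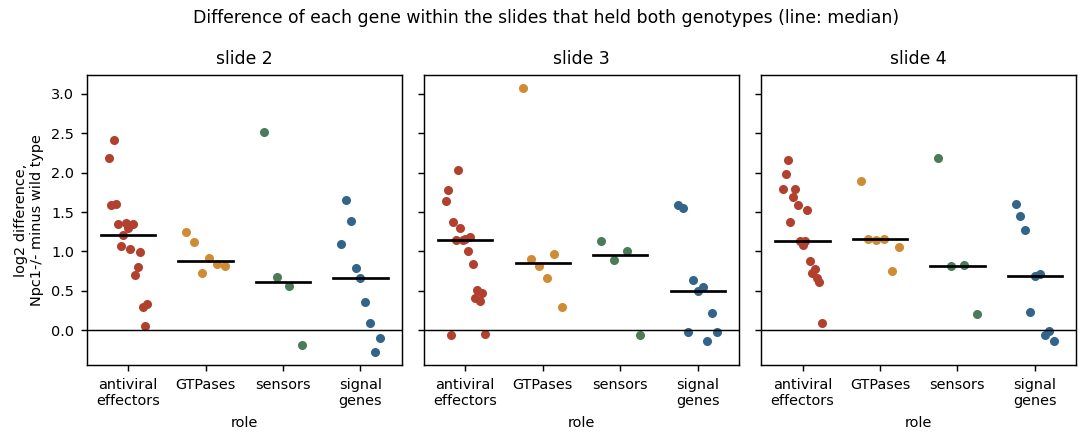
Log2 difference, Npc1-/- minus wild type, of each of the 36 genes within the 3 slides that held both genotypes (points), by role, with a line at the median. The medians of the antiviral effectors were 1.21, 1.14 and 1.14 on slides 2, 3 and 4 and those of the signal genes 0.67, 0.49 and 0.69. Each slide rests on 1 wild-type array, and slides 2 and 4 also on a single Npc1-/- array.

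The rest of the pathway was read from 4 lists, whose counts stand beside 0.734% of all genes called higher and 0.0334% called lower. Most interferon genes themselves were at or near background. Of 21 ligands 15 had a probe, and 8 of these were well above background on no array (among them Ifnb1 and Ifng). The 4 that were tested gave 0 called by limma, 0 at an unadjusted p under 0.05 and a median log2 fold change of -0.08. The brightest of the 4 was Ifna9, well above background on all 8 arrays. It had -3.57 to -3.44 in Npc1-/- cerebella and -4.37 to -2.29 in wild-type cerebella. Ifnz had -4.59 to -3.97 in Npc1-/- cerebella and -5.08 to -3.33 in wild-type cerebella. Ligand genes of this family are near-identical in sequence, so a probe may read several of them. None of 13 other receptor and JAK-STAT genes was called by limma (1 was higher at an unadjusted p under 0.05), and their median log2 fold change was 0.06. The pair with the highest mean signal was Ptpn11, a phosphatase of cytokine signalling (-0.05 ± 0.08 SE), and the receptor kinase Jak1 (-0.06 ± 0.12 SE). Among 17 sensing and induction genes 15 were tested, 2 rose and none fell, with a median of 0.21. The 2 were Tlr7, the endosomal receptor for single-stranded RNA (1.59 ± 0.27 SE, adjusted p = 0.0457, with 2 wild-type arrays well above background), and Irf8, a transcription factor of myeloid cells (0.68 ± 0.11 SE, adjusted p = 0.0423). With single arrays left out, Tlr7 passed in 1 of 8 fits and Irf8 in 0 of 8.

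Of 49 further interferon-induced genes 38 were tested, 7 were called higher and none lower, where 0.734% of all genes were called higher. The median log2 fold change of the 38 was 0.59. For 3 of the 38 no wild-type array was well above background, so that they passed the filter through Npc1-/- arrays, and the median with these at their bound was also 0.59. The chemokine Cxcl10, which draws T cells, had -3.44, -4.03, -3.17 and -3.17 in Npc1-/- cerebella, against -5.56, -5.73, -7.58 and -6.70 in wild-type cerebella. No wild-type array was well above background, which puts Cxcl10 at least 3.70-fold higher. Slfn2, a regulator of immune cell quiescence, was likewise well above background on 4 Npc1-/- arrays and on none of the wild-type arrays, which puts it at least 2.15-fold higher. Both are among the 7, but they passed the filter through Npc1-/- arrays alone. Their calls therefore lend the count no support, and no p is given for them. Rtp4, a chaperone of membrane receptors, had 0.30, 0.11, 0.31 and 0.30 in Npc1-/- cerebella, against -1.14, -0.97, -1.20 and -1.18 in wild-type cerebella. Its groups lay apart with little spread (1.38 ± 0.09 SE, adjusted p = 0.00053), and it was called in all 8 fits with an array left out and with slide as a block (adjusted p = 0.0318). Ifi204, a DNA-binding protein of the innate response, gave 1.07 ± 0.14 (SE, adjusted p = 0.0128). Without Npc1-/- replicate 1 or 2 its adjusted p was 0.0536 or 0.061, and with slide as a block it was 0.114.

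Markers of pan-myeloid cells and of homeostatic microglia moved mostly upward with genotype, and those of border macrophages went both ways. Over all genes 0.734% were called higher and 0.0334% lower. Of 10 pan-myeloid markers 4 rose and none fell (median log2 fold change 0.83), and their summed signal, in multiples of the array's 75th percentile, was 5.98 to 8.10 in Npc1-/- cerebella and 3.16 to 4.12 in wild-type cerebella. Of 10 markers of homeostatic microglia 1 rose (median 0.44), with sums of 12.1 to 15.7 in Npc1-/- cerebella and 8.79 to 9.59 in wild-type cerebella. Among 7 markers of border macrophages 1 rose and 1 fell, with a median log2 fold change of -0.32 and a range of -1.81 to 2.07. Of these 7, 1 was higher and 2 were lower at an unadjusted p under 0.05. At an unadjusted p under 0.05, 10 of the 10 pan-myeloid and 6 of the 10 microglial markers were higher, beside 5.09% of all genes. The part of these cells in the levels of the interferon-stimulated genes was not tested. Of 12 T and NK cell markers 2 could be tested and neither was called, while Cd3d, Cd3g, Cd8a, Gzma, Gzmb, Ncr1 and Prf1 were well above background on no array. Of 5 B cell markers 3 were tested and 1 rose. None of the tested markers of neutrophils (3 of 8), endothelium (10 of 10), choroid plexus (7 of 8), astrocytes (9 of 9), oligodendrocytes (6 of 6) or cerebellar neurons (10 of 10) was called by limma; at an unadjusted p under 0.05, 1 astrocyte marker was higher and 4 oligodendrocyte and 2 neuronal markers were lower (2.31% of all genes were). The oligodendrocyte markers had a median log2 fold change of -0.55 and summed to 235 to 284 in Npc1-/- cerebella and 306 to 400 in wild-type cerebella, without overlap. Log2 fold changes of the neuronal markers ran from -0.56 to -0.19 with a median of -0.24. Their sums overlapped, at 283 to 337 in Npc1-/- cerebella and 316 to 418 in wild-type cerebella.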

How the data were processed

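The authors deposited intensity values read from the scans by Agilent Feature Extraction 9.5, a program that the submitters' processing notes name. Per the file headers, processed signals are background-subtracted and detrended within an array and not scaled between arrays. Per the labels' protocols, 500 ng of total RNA was labelled with Cy3 for each array. Depth does not apply to arrays; 4 arrays per genotype limit the precision.

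Control spots were left out, outlier-flagged spots (74 to 115 per array) were set to missing, and no other spot was saturated. Log2 processed signals were centred on the array's 75th percentile, spots of a probe were averaged, and a probe was kept if 4 or more of the 8 arrays had it well above background (27164 of 41174). A gene took its probe with the highest mean. Probes were renamed through RefSeq (GRCm38.p6) by accession (22951), symbol (6659) or synonym (3109), while 8455 kept their old name. Gbp3 is Gbp4 in the files, Irf9 is Isgf3g, Irgm1 is Irgm, Dhx58 is D11Lgp2e, Trim30a is Trim30 and Ifi27 is D12Ertd647e. Probes called Ifi27 in the files whose accession is now Ifi27l2a were moved to that gene.

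Genotypes were compared by limma 3.58.1 in R 4.3.3 (lmFit, eBayes, two-sided, genotype alone), adjusted by Benjamini-Hochberg over 17983 genes, or over 27164 probes where stated, with a threshold of 0.05. The fit was tested on simulated data. The labels give 8 mice and 4 numbered arrays per genotype without saying which mouse is on which array, and each array counts as 1 replicate. The labels do not say whether arrays with the same number are related, so the main fit did not use the numbers as pairs. Each slide or scan day was fitted as a block. A further alternative used normexp (offset 50) with quantile scaling. Motifs were searched by exact letters in Python 3.11.15, and plots were drawn with matplotlib 3.10.9.

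Members and lists were chosen with earlier results of these data known, so no list was tested and counts stand beside those of all genes. Named genes are Npc1, every member and, from each pathway list, up to 4 called genes with the largest change or, where none was called, the 2 with the highest mean signal. Marker lists are given by counts and ranges. Some genes of these lists are not reported here by name.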

Additional observations from a re-analysis of the deposited data

Results flagged for a closer look

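In 10 of 72 groups of 4 arrays, 1 array lay so far from the other 3 that its gap exceeded the critical value of Dixon's test, where chance gives about 1 in 20. Wild-type replicate 2 accounts for 4 of them: Ifit1 at -2.62 beside -4.68 for the next array, Irf7 at -2.23 beside -3.91, Mx2 at -2.02 beside -2.59, and Iigp1 at -5.84 beside -4.36, the last in the opposite direction. That array also had the fewest probes well above background, 22182. The other wild-type case was Eif2ak2, at -1.25 on replicate 3 beside -1.67. Among Npc1-/- arrays, replicate 1 stood apart for Ifit3 (0.069 beside 0.22) and Ifi35 (-1.40 beside -1.69), replicate 2 for Rsad2 (-1.42 beside -2.21), replicate 3 for Lgals3bp (1.19 beside 1.63) and replicate 4 for Oasl2 (-0.98 beside -0.79). All values are log2 signals relative to the array's 75th percentile.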

How the results depend on the processing

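The 36 member genes gave 605 fold changes under the alternatives; 532 kept their direction and side of the threshold, 49 (12 genes) lost the call, 16 (9 genes) gained it and 8 (4 genes, none of them called) changed sign. No member was called lower in any fit, so the count of 0 held in all of them. Members called higher numbered 14, against 8 with slide as a block and 10 to 18 with 1 array left out, the 18 without wild-type replicate 2. Their median log2 fold change was 0.61 with normexp and quantile scaling, against 0.88, a setting whose offset compresses dim signals. GTPases called (3) were 0 with slide as a block and 2 to 5 with 1 array left out, the 5 without wild-type replicate 2. Sensors called (0) were 0 to 1, the 1 without wild-type replicate 3. Signal genes called (1) were 2 with the mean of a gene's probes or with every probe by itself, and 1 to 2 with 1 array left out; the second is Trim30a without Npc1-/- replicate 1 or 3 or wild-type replicate 1, and Irf7 without wild-type replicate 2.

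Over all genes, the 132 higher became 82 with quantile scaling, 56 with no filter, 83 with probes above background on all 8 arrays and 37 with slide as a block, and ranged over 52 to 144 with 1 array left out (63, 58 and 52 without Npc1-/- replicates 1, 2 and 4). The 6 lower became 3 with no filter and 1 with slide as a block, and ranged over 2 to 8 (2, 2, 3 and 3 without Npc1-/- replicates 1 to 4). The cause of these shifts was not tested. Stat2 changed sign to 0.10 with normexp and 0.016 with quantile scaling, and to 0.05, 0.05 and 0.10 without Npc1-/- replicate 2, Npc1-/- replicate 4 and wild-type replicate 1 (range with 1 array left out -0.13 to 0.10). Ifnar1 was at 0.0020 with slide as a block, Ifnar2 at 0.10 with the mean of its probes, and Adar at -0.0053 without Npc1-/- replicate 2 (range -0.0053 to 0.14).

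With replicate number as a block, 26 genes were higher and 1 was lower, and 2 members were called (Ifit3 and Oasl2), so that antiviral effectors gave 2, GTPases 0 and signal genes 0. The labels do not say whether equal numbers mark related mice. Deviations of same-numbered arrays correlated at 0.149, 0.038, -0.445 and 0.201. For Npc1-/- replicates 1 and 2 the same-numbered wild-type array correlated best, and for replicates 3 and 4 another one did. With 4 arrays per genotype these values cannot decide whether the numbers mark pairs. Dim probes limit what can be said of Ifi44, Zbp1 and Trim30a (1 wild-type array above background each) and of Oasl1 (2).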

Other observations

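Wild-type replicate 2 gave some probes of the members readings far above the other 7 arrays. A dim further Irgm1 probe was at -1.69 there, against -7.73, -7.54, -7.77 and -7.17 in Npc1-/- cerebella and -7.63, -7.74 and -7.86 in the other wild-type cerebella. The Oas1b probe was at -3.68 on that array, against -8.00 to -6.84 in Npc1-/- cerebella, and a dim Parp14 probe was at -3.46, against -7.52 to -6.11 in Npc1-/- cerebella. A dim Rsad2 probe was at -3.08, against -5.21 to -4.43 in Npc1-/- cerebella. None of these probes stood for its gene, and the Irgm1, Oas1b and Parp14 ones were not tested. On that array the Irgm1 and Rsad2 readings were well above background and the Oas1b and Parp14 readings were not. On the probes that did stand for the 36 genes, that array was the highest of the wild-type arrays in 10 and the lowest in 5.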
